A study of Mus musculus with 8 samples.

Results

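In 8 RNA-seq libraries, mouse endocrine cells of the pancreas were profiled at embryonic day 17, and the genes described here are the collagen genes, taken as every row whose symbol has the form of a collagen alpha chain (Col, a number, a, a number). That rule gave 43 of the 23284 genes in the count tables, and 37 of the 43 passed the filter on low counts. All cells carried a Neurog3-Cre transgene (Neurog3Cre+), whose promoter is that of a gene of islet precursors, together with a Tomato reporter that Cre switches on (RosaTomato+), on a background written C56BL/J in the labels. Dissociated pancreata were sorted by flow cytometry for cells with Tomato. In the 4 KO libraries (replicates 8, 9, 17 and 24) Neurod1, which encodes an E-box binding factor of the basic helix-loop-helix family, was floxed on both alleles (Neurod1floxed/floxed). In the 4 Het libraries (replicates 6, 7, 13 and 19) a single allele was floxed (Neurod1floxed/wt), so there are no libraries of cells with both alleles intact, and the deletion is restricted to cells with a history of Neurog3-Cre activity. The labels do not say how many animals went into a library or whether each replicate was another animal, and the p-values measure the spread between these libraries.

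Collagens are secreted or membrane-bound proteins whose chains wind into helical trimers of repeated glycine triplets. The fibrillar collagens form the fibers of connective tissue and are made mainly by mesenchymal cells, type IV collagens form the sheet of basement membranes, and FACIT collagens (fibril-associated collagens with interrupted helices) decorate the surface of fibrils or lie near basement membranes. In the embryonic pancreas, mesenchyme and blood vessels are known sources of the matrix that surrounds epithelial and islet cells, while islet endocrine cells themselves are known to make little fibrillar collagen.

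Library totals in the deposited counts were 10.35 M to 16.1 M. Neurod1 stood at 14.8 ± 9.17 CPM (counts per 1 M after TMM scaling of library sizes; SD, n = 4) in KO and 156 ± 36.5 CPM (SD, n = 4) in Het, and every KO library was below every Het library. KO replicate 8 stood apart from the other 7. The summed CPM of 16 mesenchyme markers that are not collagens was 6679 there, against 511 to 565 in the other 3 KO libraries and 463 to 1106 in the 4 Het libraries, and all 16 were highest in that library. The 11 endocrine markers summed to 19317 CPM in KO replicate 8, to between 23856 and 38300 CPM in the other KO libraries, and to between 59873 and 84538 CPM in Het libraries. In bulk libraries such as these, a change in the number of cells of a type and a change in the RNA per cell cannot be told apart. Among lists of other cell types, summed CPM reached 433 in KO and 58.7 in Het for leukocyte markers, with the most in KO replicate 8. It was 26.4 to 32.4 in KO and 17.4 to 48.1 in Het for Schwann cell and neural crest markers, 579 to 723 in KO and 525 to 669 in Het for duct markers, and 13590 to 47253 in KO and 10573 to 32758 in Het for acinar markers. Their part in the collagen levels was not tested. Log2 fold changes of collagens are therefore given with and without KO replicate 8.

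Collagen transcripts took 1.08% of all counts in KO replicate 8. They took 0.0839% to 0.0992% in the other 3 KO libraries and 0.0555% to 0.147% in the 4 Het libraries. The summed level was 10548 CPM in KO replicate 8 and 880 ± 90.7 CPM in the other KO libraries (SD, n = 3), against 1006 ± 408 CPM in Het libraries (SD, n = 4). The excess in the full sum therefore belonged to a single library, and without it the summed KO level lay inside the range of the Het libraries. Leaving out the 16 genes at least 4-fold higher in KO replicate 8 than in any other library gave another picture. The rest summed to 847, 334, 453 and 461 CPM in KO replicates 8, 9, 17 and 24. In Het replicates 6, 7, 13 and 19 they summed to 330, 331, 292 and 316 CPM, below every KO library. These sums include Col19a1, already known to rise, at 57.8 CPM in KO replicate 9 and 5.01 CPM in Het replicate 7. That difference is larger than the gap between the sums of these libraries. Col6a6 was at 11.8, 117 and 150 CPM in KO replicates 9, 17 and 24, against 24.7 to 63.3 CPM in Het libraries. The separation therefore does not describe the remaining genes as a set. The genes left out were chosen from these values, so the sums of the rest were not tested. Of the 37 tested genes, 26 were highest in KO replicate 8, as were 3198 of all 14116 genes tested.

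**Figure D1:**
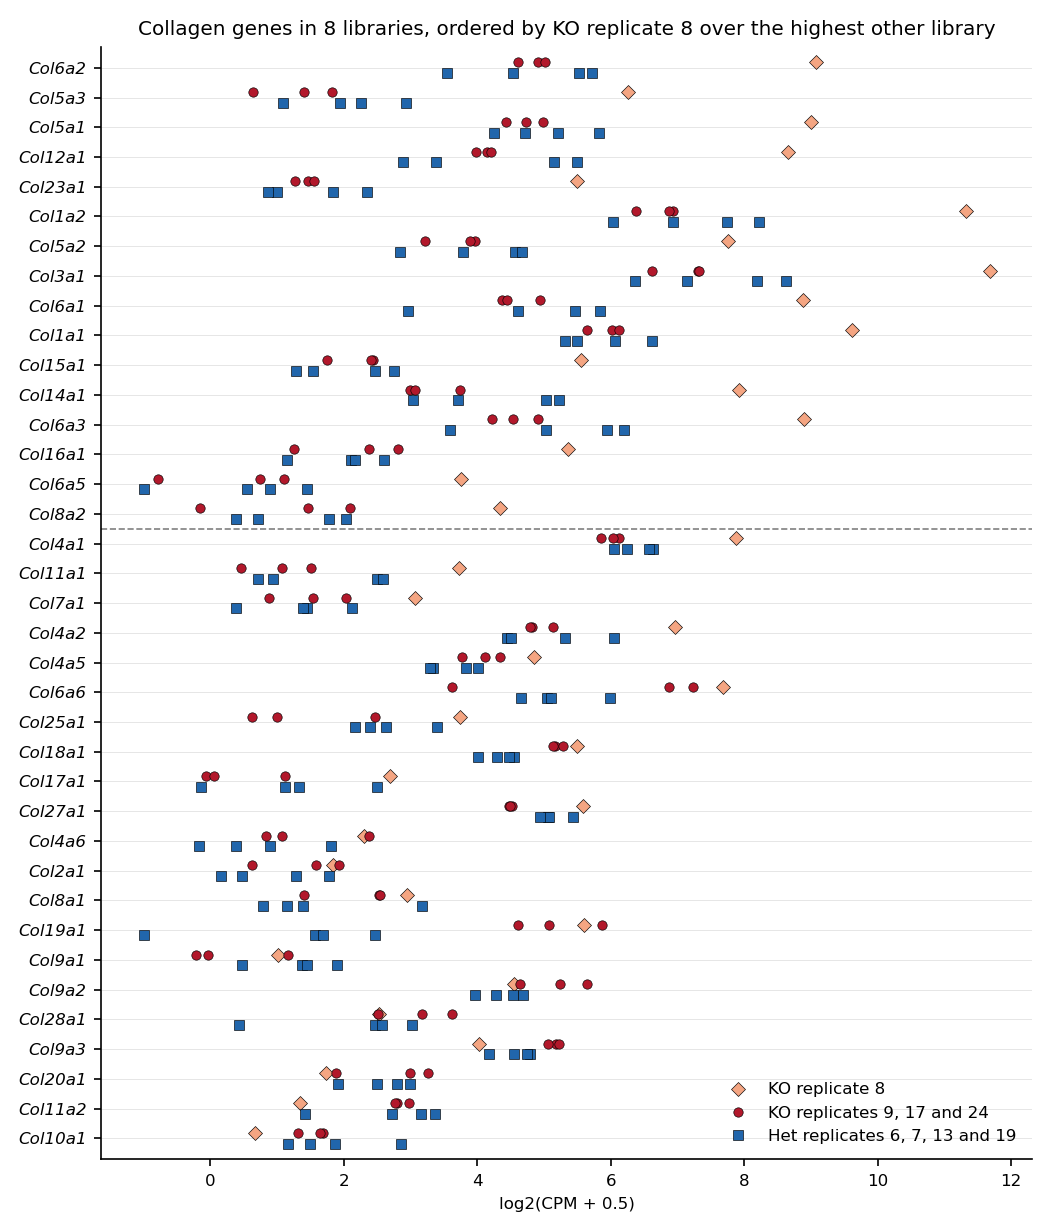
Level of the 37 tested collagen genes in each library, as log2(CPM + 0.5) on the x axis, with 1 point per library, ordered by KO replicate 8 over the highest other library. Above the dashed line are the 16 genes at least 4-fold higher in KO replicate 8 than in any other library, and Col19a1 and Col18a1 are the genes in which all 4 KO points lie to the right of all 4 Het points.

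Among collagens, 2 genes rose in KO and none fell (7 of 37 at an unadjusted p under 0.05, edgeR, where all genes gave 12.2%, and no fall called by DESeq2 or limma-voom). Col19a1, the FACIT chain of type XIX collagen, known from basement membrane zones, embryonic muscle and neurons, was 15.8-fold higher by the fitted values. Col18a1, the chain of the basement membrane heparan sulfate proteoglycan collagen XVIII, whose C-terminal fragment is endostatin, was 1.92-fold higher. They were called by edgeR's quasi-likelihood test at an adjusted p under 0.05 and are also the members whose KO libraries did not overlap the Het libraries. Called genes made up 0.340% of all genes tested in the higher direction and 0.680% in the lower, and genes whose groups did not overlap made up 3.55% with KO higher and 4.48% with KO lower, or 8.03% in either direction.

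Col19a1 was at 48.1, 57.8, 23.8 and 33.2 CPM in KO replicates 8, 9, 17 and 24, against 0, 5.01, 2.47 and 2.74 CPM in Het replicates 6, 7, 13 and 19. KO replicate 17, the lowest KO library, was well above Het replicate 7, the highest Het library, and KO replicate 8 was not the highest KO library. The counts behind these values were 660, 724, 316 and 370 in KO, against 0, 81, 28 and 27 in Het, and the count of 0 in Het replicate 6 allows a level of up to 0.232 CPM (3 counts, counting error only). The means were 40.7 ± 15.1 CPM in KO and 2.55 ± 2.05 CPM in Het (SD, n = 4 each), and the log2 fold change was 3.98 with an SE of 0.78 (edgeR, adjusted p = 0.0440). Without KO replicate 8 the log2 fold change was 3.87 (SE 0.71, adjusted p = 0.0166), in a fit that called 0.678% of 14307 genes as higher and 1.31% as lower, or 1.99% in all. Among collagen counts, Col19a1 took 0.456%, 6.88%, 2.92% and 3.38% in KO replicates 8, 9, 17 and 24, against 0 to 0.470% in Het libraries. The rise of Col19a1 was already known when these genes were chosen, and these values describe it further without being independent of that choice.

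Per kilobase of its longest annotated coding transcript, Col19a1 ranked 8 among the 43 genes in the KO libraries other than replicate 8, at a mean of 8.97 CPM per kb, and 28 in Het libraries, at 0.599 CPM per kb. In those KO libraries this put it close to Col4a1 (9.66 CPM per kb) and Col1a1 (10.3 CPM per kb). In the RefSeq annotation of GRCm38.p6, Col19a1 lies on chromosome 1 between Col9a1 and Lmbrd1, which encodes a lysosomal membrane protein of cobalamin export. Col9a1 had a mean of 1.03 ± 0.71 CPM in KO and 2.11 ± 0.97 CPM in Het (SD, n = 4 each; log2 fold change −1.03, adjusted p = 0.591, and −1.29, adjusted p = 0.531, without KO replicate 8, edgeR), and Lmbrd1 had a log2 fold change of 0.54 (adjusted p = 0.208, edgeR). Lmbrd1 was at 56.9 to 75.6 CPM in KO and 39.9 to 56.3 CPM in Het. All its KO libraries were thus above all its Het libraries, as for 3.55% of all genes tested. Neither neighbor passed the test.

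Col18a1 was at 44.8, 35.4, 38.5 and 34.5 CPM in KO replicates 8, 9, 17 and 24, against 23.0, 19.2, 15.6 and 21.8 CPM in Het replicates 6, 7, 13 and 19. All 4 KO libraries were above all 4 Het libraries, with a narrow spread in each group. The means were 38.3 ± 4.66 CPM in KO and 19.9 ± 3.27 CPM in Het (SD, n = 4 each), and the log2 fold change was 0.94 with an SE of 0.19 (edgeR, adjusted p = 0.0489). Without KO replicate 8 the 3 remaining KO libraries had a mean of 36.1 ± 2.11 CPM, and the log2 fold change was 0.85 (SE 0.21), but the call was lost (adjusted p = 0.0578). Collagen XVIII is also made by vessels, and the 10 endothelial markers summed to 8.97 to 32.1 CPM in KO libraries and 10.3 to 17.9 CPM in Het libraries, with Kdr, Flt1, Tie1 and Emcn at 0 in Het replicate 6. Of those markers only Cldn5 rose (3.22 ± 0.48 CPM in KO and 0.204 ± 0.139 CPM in Het, SD, n = 4 each; adjusted p = 0.0311, edgeR), and the part of endothelial RNA in the Col18a1 difference was not tested.

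The calls of both genes depended on which libraries were in the fit. Col18a1 lost its call when any 1 library was left out (adjusted p from 0.0578 to 0.164, edgeR), while its log2 fold change stayed between 0.84 and 1.02. Col19a1 kept its call without KO replicate 8 or Het replicate 6 and lost it when 1 of KO replicates 9, 17 and 24 or of Het replicates 7, 13 and 19 was left out (adjusted p from 0.0759 to 0.179, edgeR), with log2 fold changes from 3.56 to 4.57. The 4 Y-linked genes listed summed to 427 to 497 CPM in KO replicates 8, 9 and 24 and to 414 CPM in Het replicate 7, and to under 0.5 CPM in KO replicate 17 and Het replicates 6, 13 and 19. Among libraries with Y-linked RNA, the lowest KO value of Col19a1 was 33.2 CPM and the Het value 5.01 CPM, and among those without it the KO value was 23.8 CPM and the highest Het value 2.74 CPM. For Col18a1 the same values were 34.5 CPM in KO and 19.2 CPM in Het with Y-linked RNA, and 38.5 CPM in KO and 23.0 CPM in Het without it. Each kind has a single library of 1 genotype, so these values have no test. A fit with Y-linked expression as a covariate called neither (adjusted p = 0.130 for Col19a1 and 0.176 for Col18a1, edgeR), with a log2 fold change of 3.50 for Col19a1. That fit called 6 genes as higher and 22 as lower, against 48 and 96 in the main fit, and did not call the deleted gene Neurod1. The fits without 1 library other than KO replicate 8 called 3 to 17 genes as higher and 26 to 51 as lower. Calls were thus lost over all genes in these fits, not in Col19a1 and Col18a1 alone.

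**Figure D2:**
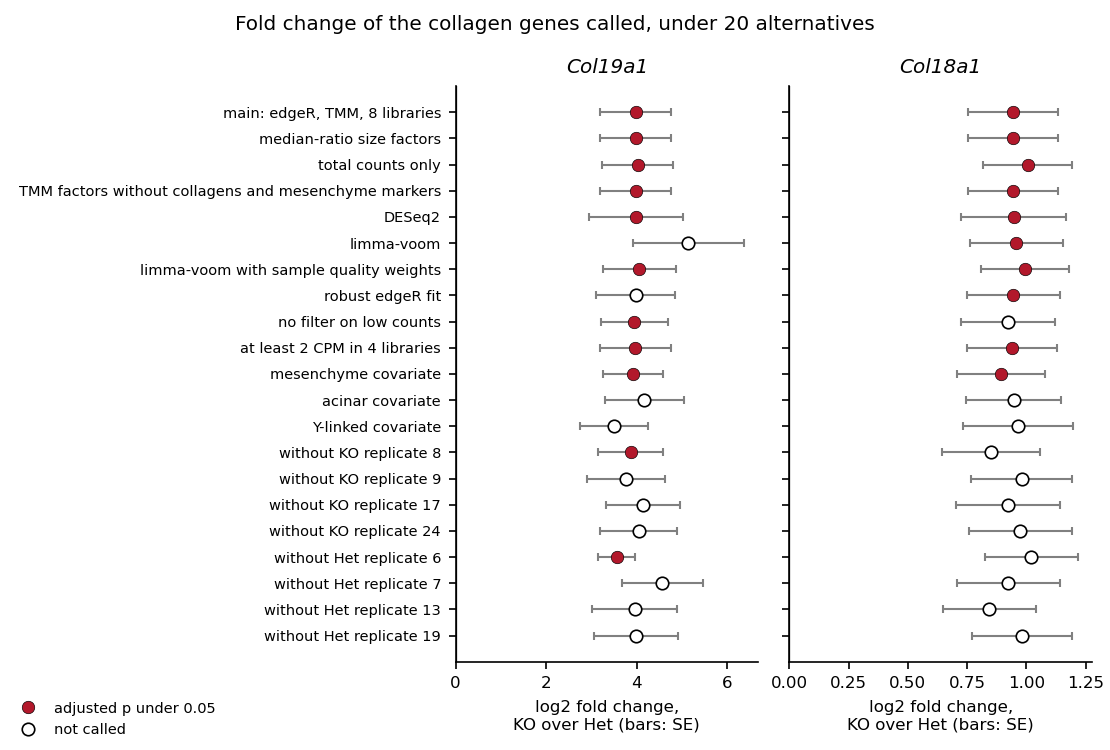
Log2 fold change, KO over Het, of Col19a1 (left) and Col18a1 (right) in the main fit and under 20 alternatives, with bars for the SE, filled points where the adjusted p was under 0.05 and open points where it was not. All values lie above 0, from 3.50 to 5.14 for Col19a1 and from 0.84 to 1.02 for Col18a1, while the call changes from setting to setting.

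The upstream sequences of the called genes are shown with those of Col1a2 and Col3a1, the most abundant collagens, so that they can be read beside each other. They are the 250 bases before the annotated start in RefSeq's GRCm38.p6 promoter table, which held windows for 35 of the 43 genes, written 5′ to 3′ on the strand of the gene. That build is not the mm9 build of the counts, so the coordinates locate these sequences only. Capitals mark the E-box CANNTG, the general motif of basic helix-loop-helix factors, CCAAT on either strand (ATTGG on the opposite one) and TATAAA on either strand (TTTATA on the opposite one). The E-box forms CAGATG and CAGCTG, searched separately, are cases of CANNTG.
Col19a1, chr1:24587438-24587687, minus strand: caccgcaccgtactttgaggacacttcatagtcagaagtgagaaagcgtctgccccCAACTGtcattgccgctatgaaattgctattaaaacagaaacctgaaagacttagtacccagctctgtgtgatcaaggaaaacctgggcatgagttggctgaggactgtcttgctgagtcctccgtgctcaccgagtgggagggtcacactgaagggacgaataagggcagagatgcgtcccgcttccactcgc
Col18a1, upstream start, chr10:77166531-77166780, minus strand: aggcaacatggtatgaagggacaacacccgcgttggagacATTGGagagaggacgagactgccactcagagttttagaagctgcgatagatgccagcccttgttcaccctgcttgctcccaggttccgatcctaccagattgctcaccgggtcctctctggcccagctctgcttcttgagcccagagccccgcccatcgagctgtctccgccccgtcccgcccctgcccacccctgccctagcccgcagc
Col18a1, downstream start, chr10:77113706-77113955, minus strand: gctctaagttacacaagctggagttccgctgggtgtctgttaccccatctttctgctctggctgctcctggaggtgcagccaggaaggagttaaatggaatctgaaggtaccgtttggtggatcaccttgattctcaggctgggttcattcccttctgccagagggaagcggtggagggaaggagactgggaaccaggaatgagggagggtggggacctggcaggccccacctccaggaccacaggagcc
Col1a2, chr6:4505368-4505617, plus strand: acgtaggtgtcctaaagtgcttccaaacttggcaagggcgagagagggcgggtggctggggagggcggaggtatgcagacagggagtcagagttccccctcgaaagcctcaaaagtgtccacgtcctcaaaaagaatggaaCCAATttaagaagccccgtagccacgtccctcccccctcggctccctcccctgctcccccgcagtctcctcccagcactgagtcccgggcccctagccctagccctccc
Col3a1, chr1:45311288-45311537, plus strand: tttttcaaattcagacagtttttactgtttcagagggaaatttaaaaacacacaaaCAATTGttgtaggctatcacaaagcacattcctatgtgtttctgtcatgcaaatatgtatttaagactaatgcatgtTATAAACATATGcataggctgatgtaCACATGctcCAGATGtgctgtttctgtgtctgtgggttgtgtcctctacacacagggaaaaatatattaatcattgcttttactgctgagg
The Col19a1 window holds a single E-box, which reads CAACTG, and has no match to either of the other motifs. Neither Col18a1 window holds an E-box, and the upstream one holds CCAAT on the opposite strand. The Col1a2 window holds CCAAT. The Col3a1 window holds 4 E-boxes, 1 of which is the form CAGATG, as well as the TATAAA motif. Over the collagen genes, an E-box was found in 19 of 35 collagen genes and in 66.2% of all 32851 promoter windows of the same length, CCAAT in 13 genes and 33.8% of windows, and TATAAA in 5 genes and 12.4% of windows. CAGATG was found in 3 genes and 14.4% of windows, and CAGCTG in 6 genes and 4271 windows (13%). Counted by window, as over all promoters, these numbers of collagen genes stayed the same, out of 38 windows. A further motif, the GC box, written GGGCGG and searched on both strands but not put in capitals above, was found in 21 genes, or 22 of the 38 windows of collagen genes, and in 32.7% of all windows. These are matches of letters, and nothing about binding follows from them.

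The largest block of collagens was high in KO replicate 8 alone. In 16 of the 37 tested genes that library was at least 4-fold above every other library (CPM + 0.5), as it was for 2.15% of all genes tested. At a limit of 2-fold there were 18 such collagens, against 5.67% of all genes. Col8a2 (4.72-fold) lay just inside the 4-fold limit and Col4a1 (2.38-fold) just outside it. The 16 were the fibrillar chains Col1a1, Col1a2, Col3a1, Col5a1, Col5a2 and Col5a3, the collagen VI chains Col6a1, Col6a2, Col6a3 and Col6a5, the FACIT chains Col12a1, Col14a1 and Col16a1, and Col8a2, Col15a1 and Col23a1. Over the median of the other 7 libraries, KO replicate 8 was higher by 7.30-fold to 22.8-fold. The 16 non-collagen mesenchyme markers had a median of 14.2-fold by the same measure, and 10 of them passed the 4-fold limit. In a fit with the level of those markers as a covariate, the 16 genes had log2 fold changes of −0.59 to 0.57, 5 of them negative. None was called (adjusted p of 0.0874 or more, edgeR, and 2 at an unadjusted p under 0.05). The 16 genes were chosen by their level in KO replicate 8, which was also the highest library for the markers of the covariate. Smaller fold changes in this fit follow from that choice, so it cannot decide where the RNA of these genes came from.

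Col3a1, a fibrillar collagen of reticular fibers, was at 3276, 159, 97.6 and 159 CPM in KO replicates 8, 9, 17 and 24, against 291, 393, 140.2 and 82.2 CPM in Het replicates 6, 7, 13 and 19. Col1a2, a chain of type I collagen, was at 2552, 121, 82.5 and 117 CPM in the same KO libraries, against 213, 298, 122 and 65.2 CPM in the same Het libraries. In both genes the other 3 KO libraries lay within the range of the Het libraries. Col1a1, the partner chain of Col1a2, was at 779.7, 64.5, 49.8 and 69.1 CPM in KO, against 66.6, 97.4, 44.5 and 39.4 CPM in Het. The count ratio of Col1a1 to Col1a2 was 0.306 in KO replicate 8 and 0.531 to 0.603 in the other KO libraries, against 0.312, 0.327, 0.364 and 0.605 in Het libraries. KO replicate 8 was thus close to Het replicates 6 and 7, the Het libraries with the most mesenchyme marker RNA, and the other KO libraries were close to Het replicate 19, which had the least. Het replicate 13, with 579 CPM of those markers, had a ratio of 0.364, below the other KO libraries with 511 to 565 CPM. A link between the ratio and mesenchyme RNA was not tested.

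With all 8 libraries the 16 genes all had positive log2 fold changes, up to 2.33, and without KO replicate 8 values of −1.26 to 0.20. None passed the test in either fit (adjusted p of 0.385 or more with all 8 libraries and 0.248 or more without KO replicate 8, edgeR), and DESeq2 and limma-voom with all 8 libraries called none either. At an unadjusted p under 0.05 edgeR gave 2 of the 16 with all libraries and 1 without KO replicate 8. The direction of 14 of the 16 changed when that library was left out. The 16 were chosen by their level in that library. Positive values with it and lower ones without it largely follow from that choice. Of the other 7 libraries, Het replicates 6 or 7 were the highest for 13 of the 16, and Het replicate 19 was the lowest of all for 12.

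**Figure D3:**
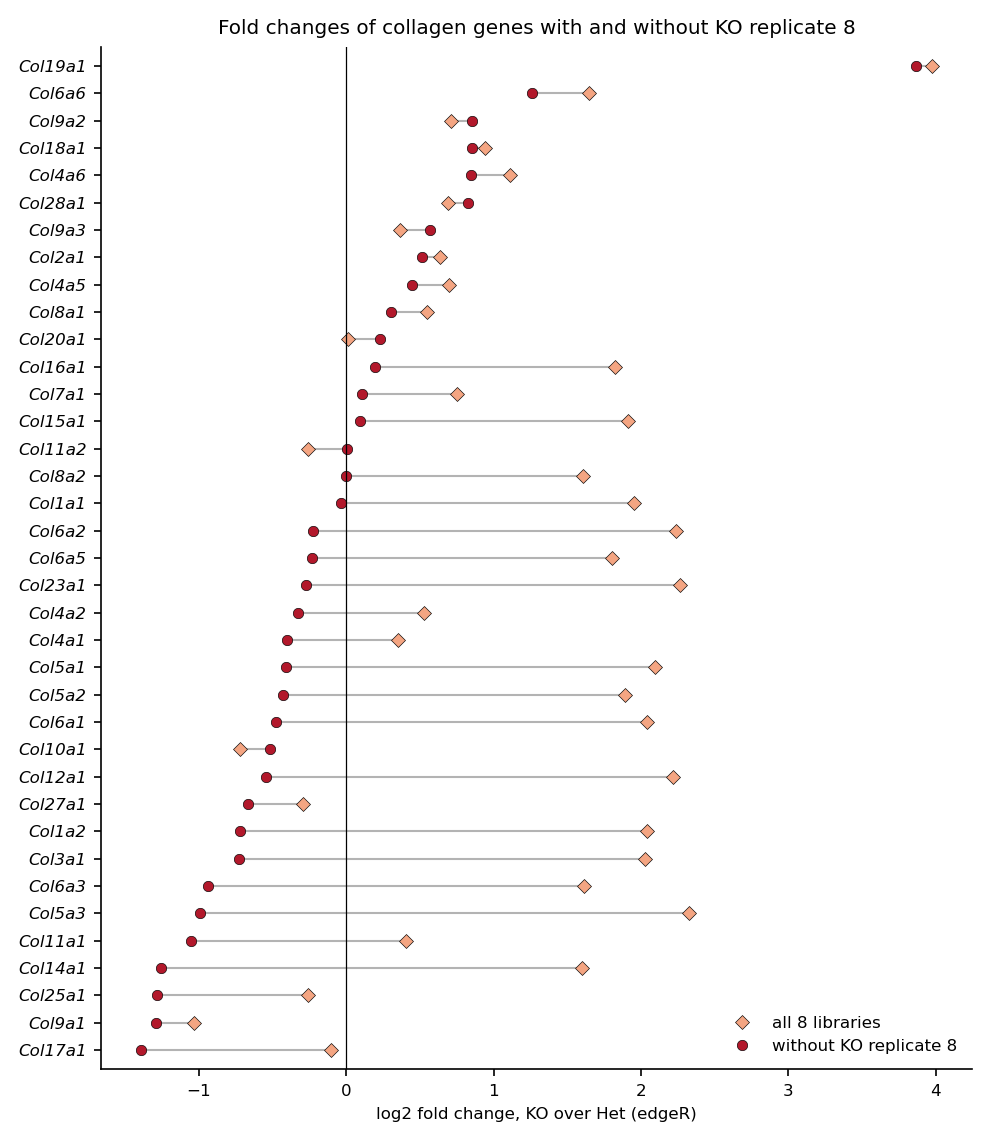
Log2 fold change, KO over Het (x axis, edgeR), of the 37 tested collagen genes with all 8 libraries (diamonds) and without KO replicate 8 (circles), ordered by the second value. Col19a1, at 3.98 and 3.87, lies far to the right in both. The 16 genes high in KO replicate 8 alone reach up to 2.33 in the first and lie between −1.26 and 0.20 in the second. They were chosen by their level in that library, so lower values without it largely follow from the choice.

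The tested collagen VI chains, which form beaded filaments around cells, showed the same pattern except for Col6a6. Col6a2 was at 537 CPM in KO replicate 8 and 23.98 to 31.8 CPM in the other KO libraries, against 11.1 to 52.4 CPM in Het libraries. Col6a1 was at 469 CPM in KO replicate 8 and 20.2 to 30.1 CPM in the other KO libraries, against 7.30 to 56.5 CPM in Het, and Col6a3 at 476 CPM and 18.1 to 29.5 CPM in KO, against 11.6 to 73.2 CPM in Het. Col6a6, an alternative chain of the same family, was at 205, 11.8, 117 and 150.04 CPM in KO replicates 8, 9, 17 and 24, against 32.5, 24.7, 34.1 and 63.3 CPM in Het replicates 6, 7, 13 and 19. It was high in 3 KO libraries and lowest of all in KO replicate 9, so the groups overlapped. It had a log2 fold change of 1.65 with an SE of 0.63 (edgeR, adjusted p = 0.331), and 1.26 without KO replicate 8 (adjusted p = 0.348, edgeR), or 2.02 without KO replicate 9, where it was called (adjusted p = 0.0438, edgeR). Col6a6, Col9a3 and Col27a1 are described as genes chosen after their values were seen.

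Among FACIT chains, Col12a1 and Col14a1, which sit on the surface of type I collagen fibrils, followed KO replicate 8. Col12a1 was at 402 CPM in that library and 15.2 to 17.97 CPM in the other KO libraries, against 6.89 to 44.8 CPM in Het. Col14a1 was at 243 CPM and 7.47 to 12.9 CPM in KO, against 7.71 to 36.8 CPM in Het. Col9a2 and Col9a3 did not follow it. These chains assemble in cartilage with the product of Col9a1 into collagen IX, and Col9a1 here was at 0.359 to 1.73 CPM in KO and 0.883 to 3.24 CPM in Het.

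Col9a2 was at 22.9, 24.6, 49.5 and 37.2 CPM in KO replicates 8, 9, 17 and 24, against 15.1, 18.98, 22.6 and 25.2 CPM in Het replicates 6, 7, 13 and 19. KO replicates 17 and 24 were above all Het libraries, and KO replicates 8 and 9 were below Het replicate 19. It had a log2 fold change of 0.71 with an SE of 0.28 (edgeR, adjusted p = 0.345), or 0.85 without KO replicate 8 (adjusted p = 0.147, edgeR). Col9a3 was at 15.7, 35.6, 36.8 and 33.0 CPM in KO, against 17.6, 27.1, 22.9 and 26.3 CPM in Het. The lowest value was that of KO replicate 8, and the other 3 KO libraries were above all Het libraries (35.1 ± 1.95 CPM, SD, n = 3, and 23.5 ± 4.32 CPM, SD, n = 4), with a log2 fold change of 0.37 with all libraries (adjusted p = 0.636) and 0.57 without KO replicate 8 (adjusted p = 0.221, edgeR). Neither gene passed the test in either fit.

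Col27a1, a fibrillar collagen of cartilage, was at 47.3, 21.9, 22.6 and 21.9 CPM in KO replicates 8, 9, 17 and 24, against 32.8, 33.3, 42.6 and 30.3 CPM in Het replicates 6, 7, 13 and 19. The 3 KO libraries other than replicate 8 lay within 1 CPM of each other and below every Het library. The log2 fold change was −0.29 (SE 0.28, adjusted p = 0.718) with all libraries and −0.66 (SE 0.20, adjusted p = 0.131) without KO replicate 8, and the gene did not pass the test in either fit (edgeR). Without KO replicate 8, Col18a1, Col19a1 and Col9a3 were the tested collagens with all KO libraries above all Het libraries, and Col27a1 the 1 with all below. Over all genes tested in that fit the groups did not overlap for 6.91% with KO higher and 7.56% with KO lower, so these 4 of 37 genes are not more than the background.

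**Figure D4:**
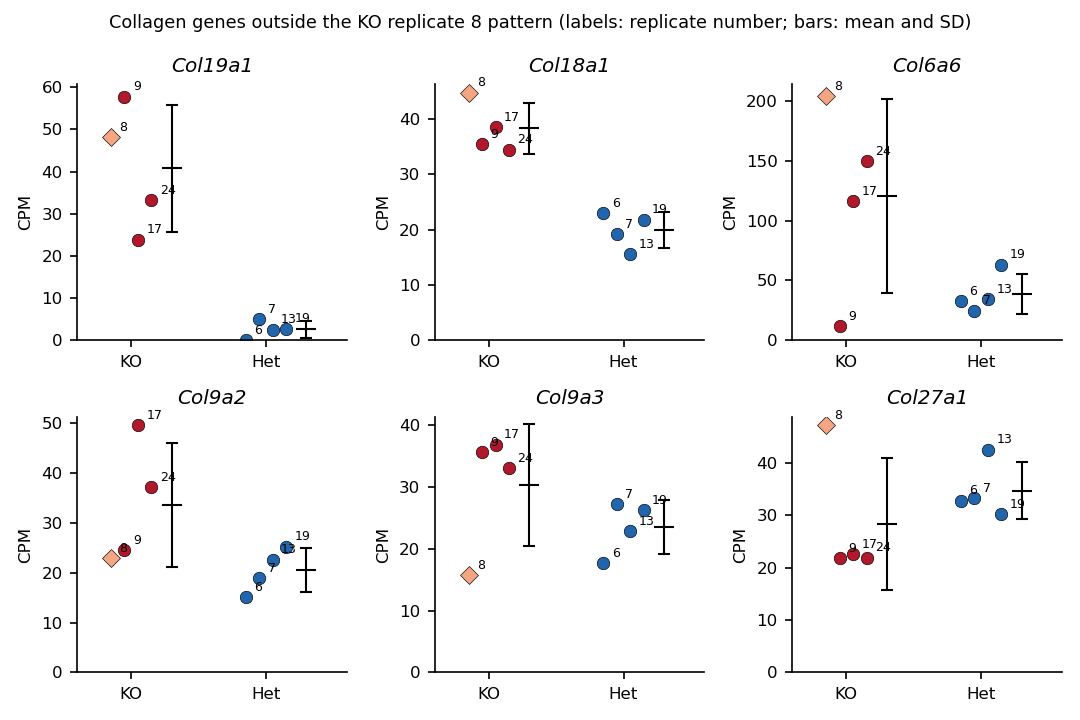
CPM of 6 collagen genes in each KO and Het library (points, labelled with the replicate number, with KO replicate 8 as a diamond), with the mean and SD of each group as bars (n = 4). The groups are apart in Col19a1 and Col18a1, whereas KO replicate 9 breaks the pattern in Col6a6 and KO replicate 8 breaks it in Col9a3 and Col27a1.

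The type IV chains of basement membranes were led by Col4a1 and Col4a2, which wind together into the main network of most basement membranes. Col4a1 was at 236, 57.3, 69.1 and 65.2 CPM in KO replicates 8, 9, 17 and 24, against 98.6, 95.0, 65.9 and 75.1 CPM in Het replicates 6, 7, 13 and 19. Col4a2 was at 125, 34.6, 27.9 and 27.1 CPM in the same KO libraries, against 65.7, 39.4, 21.2 and 22.3 CPM in the same Het libraries. Both were highest in KO replicate 8, by 3.39-fold and 4.41-fold over the median of the remaining 7. Each of the 16 genes above, which were chosen by their level in that library, had 7.30-fold or more. The pair is transcribed in opposite directions from annotated starts 21 bases apart in RefSeq's GRCm38.p6 table, and the count ratio of Col4a2 to Col4a1 was 0.403 to 0.604 in KO and 0.297 to 0.666 in Het. Their log2 fold changes were 0.35 and 0.53 with all libraries and −0.40 and −0.33 without KO replicate 8, with adjusted p of 0.333 or more throughout (edgeR). Col4a5, an X-linked chain, was at 28.5, 19.8, 16.9 and 13.1 CPM in KO, against 9.58, 13.7, 15.6 and 9.33 CPM in Het (log2 fold change 0.70, SE 0.31, adjusted p = 0.395, edgeR), with overlapping groups, and without KO replicate 8 the log2 fold change was 0.45 (adjusted p = 0.533, edgeR).

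The remaining classes were low or followed KO replicate 8. Col15a1, which with collagen XVIII makes up the multiplexins, was at 46.5 CPM in KO replicate 8 and 2.88 to 4.95 CPM in the other KO libraries, against 1.93 to 6.24 CPM in Het, in contrast to Col18a1. The transmembrane collagen gene Col23a1 was at 44.4 CPM in KO replicate 8 and 1.91 to 2.43 CPM in the other KO libraries, against 1.32 to 4.57 CPM in Het. Col25a1, a transmembrane collagen of neurons, was at 12.8 CPM in KO replicate 8 and 1.04 to 5.03 CPM in the other KO libraries, against 4.02 to 9.98 CPM in Het, and Col17a1, the transmembrane collagen of hemidesmosomes, at 0.452 to 5.97 CPM in KO, against 0.406 to 5.13 CPM in Het. Col7a1, the anchoring fibril chain, was at 1.35 to 7.87 CPM in KO, against 0.811 to 3.86 CPM in Het. The short-chain genes Col8a1, Col8a2 and Col10a1 reached at most 7.21, 19.7 and 2.71 CPM in KO, against 8.47, 3.59 and 6.71 CPM in Het. None of these passed the test.

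The collagen V chains, which control the diameter of type I fibrils, were Col5a1 at 510.1 CPM in KO replicate 8 and 21.1 to 31.2 CPM in the other KO libraries, against 18.5 to 56.4 CPM in Het, with Col5a2 at 215 CPM and Col5a3 at 76.4 CPM in KO replicate 8. Col5a2 reached 15.2 CPM in the other KO libraries, against 24.9 CPM in Het, and Col5a3 3.03 CPM, against 7.11 CPM in Het. The FACIT gene Col16a1 was at 40.6 CPM in KO replicate 8 and 1.89 to 6.54 CPM in the other KO libraries, against 1.72 to 5.56 CPM in Het. Col6a5 was at 12.97 CPM in KO replicate 8 and at most 1.66 CPM in the other KO libraries, against at most 2.23 CPM in Het. The cartilage chains Col2a1, Col11a1 and Col11a2 stayed at or below 12.8 CPM in KO and 9.83 CPM in Het, and Col11a2 was lowest in KO replicate 8 (2.04 CPM). Col20a1, Col28a1 and Col4a6 reached 9.05, 11.8 and 4.71 CPM in KO, against 7.42, 7.67 and 3.003 CPM in Het, and all 3 had overlapping groups.

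The 6 genes that did not pass the filter, Col4a3, Col4a4, Col6a4, Col13a1, Col22a1 and Col24a1, reached at most 5.25 CPM in any library. That value belonged to Col24a1 in KO replicate 8, with 72 counts there and 4, 33 and 4 counts in KO replicates 9, 17 and 24, against 0, 1, 4 and 1 counts in Het replicates 6, 7, 13 and 19.

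Over all 37 tested collagens the median log2 fold change was 1.11 with all 8 libraries, against 0.03 over all genes tested, and −0.23 without KO replicate 8, against −0.0048 over all genes. Positive values were seen in 31 of 37 genes in the first fit, against 53.4% of all genes, and in 15 of 37 in the second, against 49.4% of all genes. An unadjusted p under 0.05 was seen for 7 of 37 genes in the first fit and 8 of 37 in the second, against 12.2% and 14.2% of all genes. In the authors' deposited table of their own comparison, Col19a1 was the 1 collagen gene of 43 with an adjusted p under 0.05, against 184 of all 18760 genes with a p-value there. Col19a1 had a log2 fold change of 3.99 and an adjusted p of 2.71e-08 by the authors' DESeq test, and Col18a1 had 0.94 and an adjusted p of 0.141.

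The genes that modify, process and sense collagen did not pass the test. Of 27 tested genes for prolyl and lysyl hydroxylases, chaperones, propeptide proteases and lysyl oxidases, edgeR called none in either direction with all 8 libraries or without KO replicate 8 (3 and 2 at an unadjusted p under 0.05, and none called by DESeq2 or limma-voom). Of the 32 with a row, 25 were highest in KO replicate 8, as were 3198 of all 14116 genes tested. With all 8 libraries the gene with the smallest p was P4ha3, a prolyl hydroxylase subunit (log2 fold change 1.48, adjusted p = 0.359, edgeR). Without KO replicate 8 it was Loxl2, a lysyl oxidase gene, named here after its values were seen. Loxl2 was at 133, 15.2, 26.7 and 34.2 CPM in KO replicates 8, 9, 17 and 24, against 59.01, 62.9, 48.7 and 45.3 CPM in Het replicates 6, 7, 13 and 19. The 3 KO libraries other than replicate 8 were thus below every Het library for Loxl2, as for 7.56% of all genes tested without KO replicate 8. Its log2 fold change was −0.042 with all libraries and −1.10 without KO replicate 8 (edgeR, adjusted p = 0.985 and 0.0578). None of 7 tested collagen receptor genes was called by edgeR (1 at an unadjusted p under 0.05), DESeq2 or limma-voom. The integrin gene Itga2 had 7.19 ± 0.74 CPM in KO and 3.46 ± 1.22 CPM in Het (SD, n = 4 each), a log2 fold change of 1.05 (adjusted p = 0.318, edgeR). All its KO libraries were above all its Het libraries, as for 3.55% of all genes tested. None of 15 tested laminin, nidogen and other basement membrane partners was called by edgeR (5 at an unadjusted p under 0.05), DESeq2 or limma-voom. Without KO replicate 8, 1 of these 15 and 1 of the 7 receptor genes had an unadjusted p under 0.05 (edgeR). Over all genes tested such a p was seen for 12.2% with all 8 libraries and 14.2% without KO replicate 8.

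**Figure D5:**
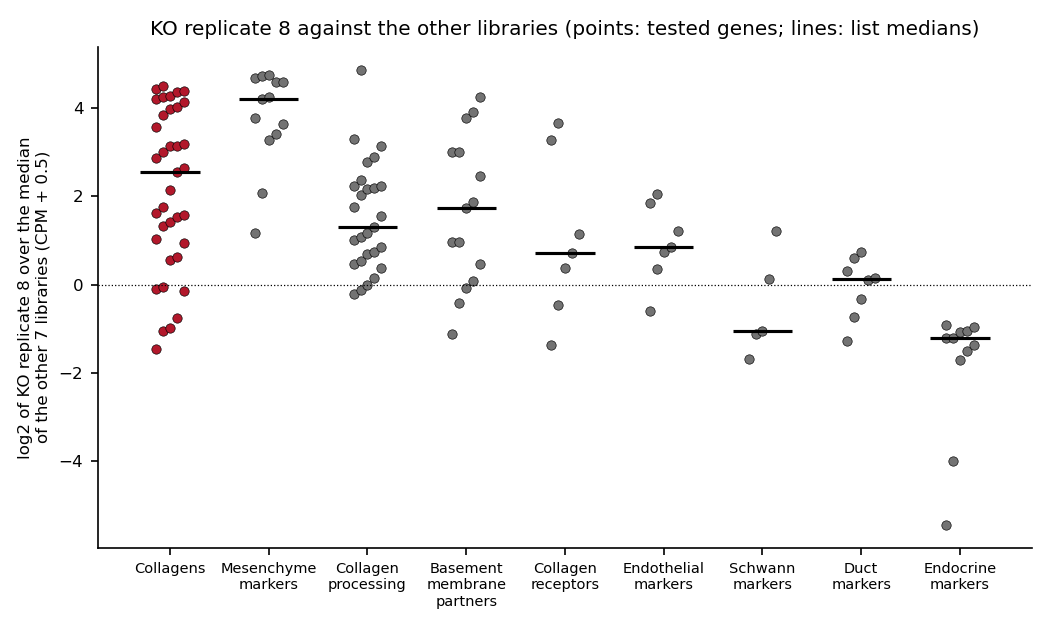
KO replicate 8 over the median of the other 7 libraries, as log2 of the ratio of CPM + 0.5 (y axis), with 1 point per tested gene and a line at the median of each list. Collagens spread from the level of the mesenchyme markers at the top to below 0, while all 11 endocrine markers lie below 0. Most of the other 7 libraries are Het, so genes lower in all KO libraries, such as the endocrine marker Neurod1, also lie below 0 here.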

How the data were processed

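RNA was sequenced from 4 KO and 4 Het libraries. Per the labels' protocols, libraries were amplified from 2.315 ng of RNA (NuGEN Ovation V2) and read to about 30 M single ends of 100 bases. Amplified copies are counted as reads, so counting limits cover counting error only. The deposited values are whole-number counts per gene symbol, not normalized. The submitters' processing notes name build mm9 and the tools TopHat2 2.1.0, DESeq, Cufflinks 2.0.2 and bcl2fastq 1.8.4. Which tool counted, its strand setting and its annotation were not given in the sources used here. A further table holds the authors' comparison of KO with Het. Per the file headers, its columns are a mean signal (normalized counts) per group, the ratio or fold change, the log2 fold change, and p-values raw and adjusted.

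Of 23284 genes, 14116 passed the low-count filter (filterByExpr in edgeR, with a minimum count of 10 and a minimum total of 15). Libraries were scaled by TMM factors. KO was compared with Het by edgeR 4.0.16 (quasi-likelihood F test, two-sided, no covariate), with Benjamini-Hochberg adjustment over all genes tested. The SE was taken from the fold change and its F statistic. DESeq2 1.42.0 and limma 3.58.1 were alternatives, as were 2 other scalings, TMM without collagens and mesenchyme markers, a robust fit, 2 other filters, covariates for mesenchyme, acinar and Y-linked expression, and each library left out in turn. A count of 0 allows up to 0.185 to 0.304 CPM, depending on the library (3 counts). No 2 libraries held identical values, and the labels give no batch.

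The genes, lists and tests were chosen with earlier results of these data known. The naming rule took genes called with all libraries or without KO replicate 8, genes whose groups do not overlap, and up to 3 genes of each collagen class with the highest mean. Of the lists, mesenchyme, endocrine, endothelial, duct, Schwann-cell, leukocyte, acinar and Y-linked markers were run for comparison. Lengths are those of the longest coding transcript in GENCODE M21, an annotation of another build than the counts.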

Additional observations from a re-analysis of the deposited data

Results flagged for a closer look

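For the 25 collagen genes followed under the alternatives, the 50 groups of 4 libraries were checked for a library far from the others, with the gap to the nearest library divided by the range of the group (limit 0.829). Among unrelated groups chance gives about 1 such library in 20, and 14 were found. These groups share the same 8 libraries, and many of the genes were followed for a high mean to which KO replicate 8 contributes. That rate is therefore no measure for them, and the 14 are only described. In 13 of them KO replicate 8 was the highest of the 4 KO libraries. Its levels were 3276 CPM for Col3a1, 2552 CPM for Col1a2, 779.7 CPM for Col1a1, 537 CPM for Col6a2, 476 CPM for Col6a3, 469 CPM for Col6a1, 402 CPM for Col12a1 and 243 CPM for Col14a1. It was also far above the other KO libraries for Col4a1 (236 CPM), Col4a2 (125 CPM), Col27a1 (47.3 CPM), Col15a1 (46.5 CPM) and Col23a1 (44.4 CPM). In the other case, Het replicate 7 stood above the rest of the Het libraries for Col8a1, at 8.47 CPM. Neither Col19a1 nor Col18a1 had such a library in either group.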

How the results depend on the processing

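No paired analysis was possible because the groups share no replicate numbers. Col19a1 and Col18a1 kept a positive log2 fold change under all 20 alternatives. Called genes numbered 144, against 520 (DESeq2), 500 (limma-voom, quality weights), 599, 74 and 28 with the mesenchyme, acinar and Y-linked covariates, and 29 to 285 with 1 library left out (the most without KO replicate 8). Called collagens numbered 2, against 1 by limma-voom, with the robust fit or with no filter, 0 with the acinar or Y-linked covariate, and 0 to 1 with 1 library left out (without KO replicate 9 the 1 was Col6a6). No collagen processing or receptor gene was called without any 1 library. Col19a1 was no longer called by limma-voom (log2 fold change 5.14), with the robust fit (3.98) or with the acinar (4.17) or Y-linked (3.50) covariate, and had 3.56 to 4.57 with 1 library left out. Neurod1 was no longer called with the Y-linked covariate (−3.18), and had −3.68 to −3.06 with 1 library left out, where the call held only without KO replicate 8, 17 or 24. The log2 ratio of the mean summed collagen level was −0.19 to 2.03 with 1 library left out. Genes high in KO replicate 8 alone numbered 9 at a fold of 8 in place of 4, and 16 at 4. With the mesenchyme covariate the log2 fold change turned to −0.59 for Col14a1, −0.084 for Col1a2, −0.061 for Col3a1, −0.18 for Col4a1, −0.052 for Col4a2 and −0.25 for Col6a3. By limma-voom with quality weights it turned to −0.55 for Col14a1, −0.045 for Col1a2, −0.12 for Col4a1 and −0.15 for Col6a3, and Col17a1 turned to 0.029 with the acinar covariate. With 1 library left out the log2 fold change ran from −0.54 to 2.70 for Col12a1, −1.26 to 1.95 for Col14a1, −0.035 to 2.27 for Col1a1, −0.72 to 2.42 for Col1a2, −0.73 to 2.43 for Col3a1, −0.27 to 2.68 for Col23a1, −0.40 to 0.56 for Col4a1, −0.33 to 0.95 for Col4a2, −0.47 to 2.43 for Col6a1, −0.23 to 2.58 for Col6a2, −0.94 to 1.97 for Col6a3 and −0.0027 to 1.998 for Col8a2, each lowest without KO replicate 8. It ran from −1.39 to 0.65 for Col17a1 and from −1.29 to 0.078 for Col25a1. The cause of these changes was not tested beyond what each alternative changes. Low genes such as Col24a1 rest on few counts.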
